A study of Homo sapiens with 4 samples.

Results

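The 35 genes described here encode the human aminoacyl-tRNA synthetases, the enzymes that load each amino acid onto its tRNA. They were taken by symbol from a list of 19 cytosolic and 16 mitochondrial synthetases, out of 62443 genes with a value. The rule used no measured value, but earlier results of these data were known when the list was chosen. The question was whether the cytosolic and the mitochondrial enzymes differed between treated and control cells. HGC-27, an established line of human gastric cancer cells, was the source of the 4 RNA-seq libraries. Libraries GLUP 1 and GLUP 2 came from cells given GLUP at 10 μg/ml, and control 1 and control 2 came from cells whose treatment is labelled as none. GLUP is a cyclic peptide that was designed to join molecules of TEAD4, a transcription factor of the Hippo pathway. The methods of the study name the stocking buffer of the peptide for the control and an exposure of 48 h, whereas its results give 12 h. All libraries came from a single line. The methods call the RNA samples biological replicates, while neither they nor the labels say whether the 2 libraries of a group came from separate cultures, so a p-value below measures only the spread between these libraries. The values are FPKM, fragment counts divided by the length of the transcript and by the size of the library, and can be compared between genes.

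A synthetase recognises 1 amino acid and its matching tRNAs, and the charged tRNA is then carried to the ribosome by an elongation factor. Cells of animals keep 1 set of these enzymes for the cytosol and another, encoded in the nucleus under symbols that mostly end in 2, for translation inside mitochondria. GARS1 and KARS1 each give both the cytosolic and the mitochondrial enzyme. EPRS1 joins the glutamate and the proline enzyme in 1 protein, and FARSA and FARSB are the α and β subunits of the cytosolic phenylalanine enzyme. Mitochondria have no glutamine enzyme of their own, since their glutamine tRNA is loaded with glutamate and then converted by an amidotransferase. In the cytosol several synthetases are held together in the multi-synthetase complex. Many of the cytosolic genes are known targets of ATF4, the transcription factor that the integrated stress response brings up when amino acids are short or tRNAs stay uncharged, and WARS1 is known for its induction by interferon.

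The ATF4 binding site is the best known control element of this family, so the promoters that hold its letters are shown first. The RefSeq promoter table, on GRCh38.p14, gives windows of 300 bases (250 before and 50 after a gene start) for 30 of the 35 genes, and AARS2, LARS1, VARS1, VARS2 and YARS1 were not matched in it. The letters searched for the amino acid response element were TGATGNAA on both strands, which occur in 3.62% of all 35116 windows and in the windows of 4.46% of all 27305 genes. They were present for 8 of the 30 synthetase genes (26.7%), namely 7 of the 10 ATF4 targets with a window and YARS2. The 7 stretches below are the ATF4 targets, written 5′ to 3′ on the strand of the gene, with the matched letters in capitals. TTGCATCA and TTTCATCA are the same letters read on the opposite strand, and NARS1 carries them on its own strand. Positions are counted from 1 at the RefSeq start of the window, with −1 just before it, and the matches lie at 3 to 10 in TARS1, −33 to −26 in GARS1, −13 to −6 in IARS1, −2 to 6 in CARS1, −4 to 4 in MARS1, −187 to −180 in AARS1 and 15 to 22 in NARS1.
TARS1 (chr5:33440935-33440974, plus strand): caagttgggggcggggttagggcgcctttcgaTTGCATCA
GARS1 (chr7:30594813-30594852, plus strand): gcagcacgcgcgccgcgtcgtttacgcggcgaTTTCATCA
IARS1 (chr9:92293703-92293742, minus strand): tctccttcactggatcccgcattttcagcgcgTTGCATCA
CARS1 (chr11:3057418-3057457, minus strand): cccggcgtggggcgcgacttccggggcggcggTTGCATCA
MARS1 (chr12:57488032-57488071, plus strand): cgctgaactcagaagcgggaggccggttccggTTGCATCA
AARS1 (chr16:70289686-70289725, minus strand): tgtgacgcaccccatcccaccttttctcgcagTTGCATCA
NARS1 (chr18:57621815-57621854, minus strand): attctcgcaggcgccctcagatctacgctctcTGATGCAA

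Further stretches belong to genes that are compared below. HARS1, the cytosolic histidine enzyme, and HARS2, its mitochondrial partner, share 108 exonic bases on opposite strands in GENCODE on GRCh37. Their RefSeq starts lie back to back, with 84 bases between them. The whole interval is shown on the plus strand, which is that of HARS2, with 2 matches to the letters CCGGAAG of the ETS family in capitals. The ETS letters, searched on both strands, occur in 10.3% of all windows and for 12.2% of all genes, and 16 of the 30 synthetase genes (53.3%) had them.
HARS1 and HARS2 (chr5:140691371-140691454, plus strand): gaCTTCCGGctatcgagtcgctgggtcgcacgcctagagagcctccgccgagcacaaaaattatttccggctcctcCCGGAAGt
The WARS1 stretch shows the core letters of the interferon-stimulated response element, GAAANNGAA, at −55 to −47 from 1 of the gene's starts. They occur on either strand in 8.11% of all windows and for 9.86% of all genes, and 4 of the 30 synthetase genes (EARS2, GARS1, IARS1 and WARS1) had them.
WARS1 (chr14:100375394-100375434, minus strand): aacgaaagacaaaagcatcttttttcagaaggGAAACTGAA
TEAD4 is the factor that GLUP was made to bind, and the TEAD letters GGAATG, on either strand, were found for 4 of the 30 synthetase genes (CARS1, FARS2, WARS2 and YARS2) and for 16.7% of all genes. The letters of NRF1, a factor known for nuclear genes of mitochondria, GCNTGCGC, were found for 10 of the 30 and for 14.2% of all genes. These matches are descriptions of the sequence only, and no binding was measured.

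The libraries did not lie equally close together. Over the 7588 genes that averaged 1 FPKM or more, log2(FPKM + 1) of the 2 GLUP libraries correlated at a Pearson r of 0.986 and of the 2 control libraries at 0.933, a value below the 0.952 and 0.957 between control 1 and the GLUP libraries. The median log2 fold change of all these genes, GLUP minus control, was −0.36. The depth of the libraries cannot be read from FPKM. Defining markers of an epithelial line were low, with EPCAM at no more than 0.124 FPKM and CDH1 listed at 0 in both GLUP libraries, KRT8, KRT18 and KRT19 lay between 0.764 and 2.25 FPKM, and vimentin, the mesenchymal filament VIM, was at 293 to 387 FPKM. Of the other mesenchymal markers, ZEB1 was at 2.88 to 19.2 FPKM, FN1 at 0.655 to 3.25 FPKM and CDH2 at no more than 0.0508 FPKM. The fibroblast marker DCN was at 20.1 to 41.3 FPKM. COL1A1, COL1A2 and PDGFRB of the same list lay lower, at 2.97 to 6.90, 0.246 to 0.443 and 0.135 to 0.198 FPKM. The 4 leukocyte markers were at no more than 0.250 FPKM, and CDH5 was listed at 0 in every library.

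Cytosolic synthetase transcripts were far more abundant than mitochondrial ones in every library, and the members lay on both sides of 0 in the comparison of GLUP with control cells. The 19 cytosolic genes summed to 911 and 630 FPKM in control 1 and control 2 and to 878 and 755 FPKM in GLUP 1 and GLUP 2, so the groups overlapped. The 16 mitochondrial genes summed to 40.2 and 31.9 FPKM in control cells and to 30.4 and 29.1 FPKM with GLUP, both of which were lower. In bulk RNA, fewer cells of a kind and less RNA per cell cannot be told apart. The ratio of the sums was therefore 22.6 and 19.7 in control cells and 28.8 and 25.95 with GLUP. SARS1 and WARS1, the serine and tryptophan enzymes, made up between 47.4% and 60.3% of the cytosolic sum, so the ratio rests largely on these 2 genes. With 2 libraries against 2, an exact permutation test of the libraries, two-sided, cannot give a p under 0.33, and none was made.

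**Figure D1:**
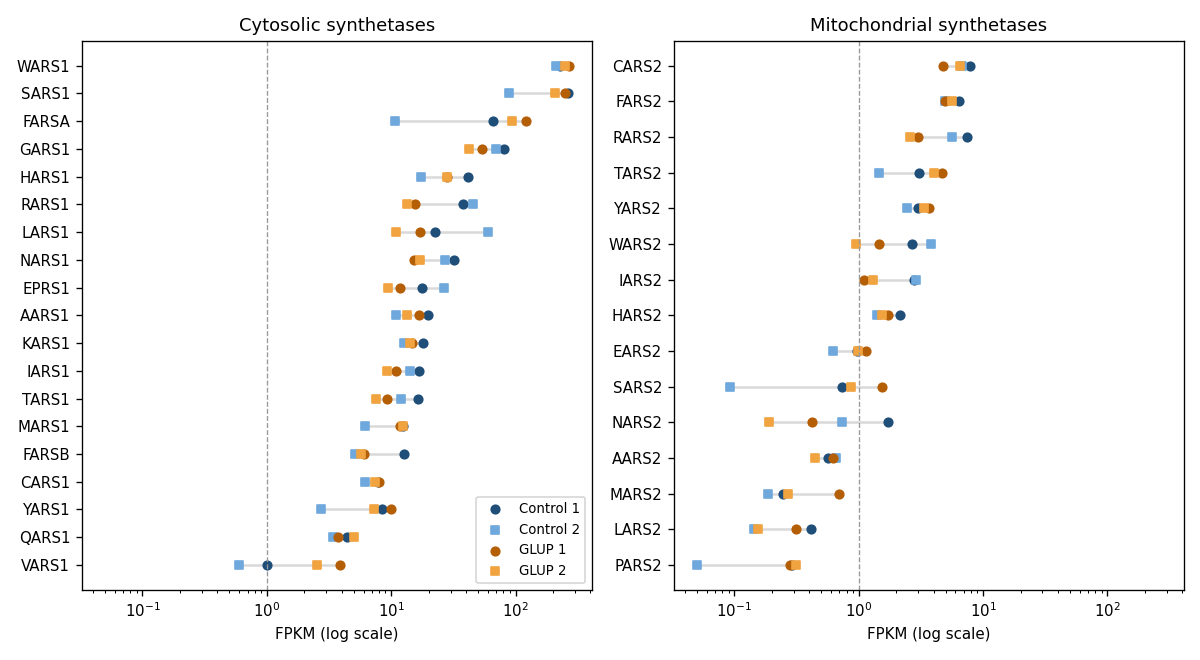
FPKM of the synthetase genes in each library on a log axis, for cytosolic (left) and mitochondrial genes (right) ordered by their mean, with circles for replicate 1 and squares for replicate 2 of control (blue) and GLUP (orange) and a dashed line at 1 FPKM. WARS1 and SARS1 stand at the top of the cytosolic panel, and VARS2 is left out because it was listed at 0 in all 4 libraries.

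All 19 cytosolic genes and 8 of the 16 mitochondrial genes averaged 1 FPKM or more over the libraries and entered the test, limma on log2(FPKM + 1), on which scale changes of low genes are understated. None of the 27 reached a Benjamini-Hochberg adjusted p under 0.05 in limma over all 7588 genes, where 0.0264% of the genes passed together with a fold change over 2, and the lowest adjusted p of a synthetase in limma was 0.10. At p under 0.05 before adjustment with more than a 2-fold change, RARS1 and LARS1 were lower and VARS1 was higher, a gene under 1 FPKM in both control libraries that passed the minimum through its GLUP libraries. This is 2 of 27 against 14.5% of all genes for lower values and 1 of 27 against 4.67% for higher values. At p under 0.05 before adjustment and any size of change, 7 of 27 were lower (RARS1, LARS1, RARS2, EPRS1, WARS2, NARS1 and IARS2) and 1 of 27 was higher, against 25.4% and 6.37% of all genes. The share of lower synthetases was thus near that of all genes.

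Both GLUP values were below both control values in 11 of the 27 synthetases, against 49.7% of all genes, and above both in 5 of the 27 (FARSA, VARS1, WARS1, TARS2 and YARS2), against 17.5%. In the other 11 the groups overlapped. The median log2 fold change of the 27 was −0.07. It was 0.01 over the 19 cytosolic genes, of which 10 lay above 0 and 9 below, and −0.21 over the 8 mitochondrial genes, of which 2 lay above 0 and 6 below. The cytosolic median exceeded the mitochondrial one by 0.22. A different measure is the median log2(FPKM + 1) of the tested cytosolic genes in a library minus that of the mitochondrial ones. It was 2.24 and 1.66 in control cells and 1.86 and 1.78 with GLUP, with a pooled SD of 0.295 between replicates. Both GLUP values of this measure lay between the control values. After centring of the libraries on their medians, the 2 median fold changes became 0.36 and 0.13, and without control 2 they were −0.39 and −0.34. The cytosolic median was −0.026 with the libraries scaled to equal FPKM sums and −0.073 at a mean of at least 5 FPKM. Without GLUP 1 it was −0.10 and without GLUP 2 −0.04. The sign of both medians thus depended on the scaling, and that of the cytosolic median also on the filter and on single libraries.

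**Figure D2:**
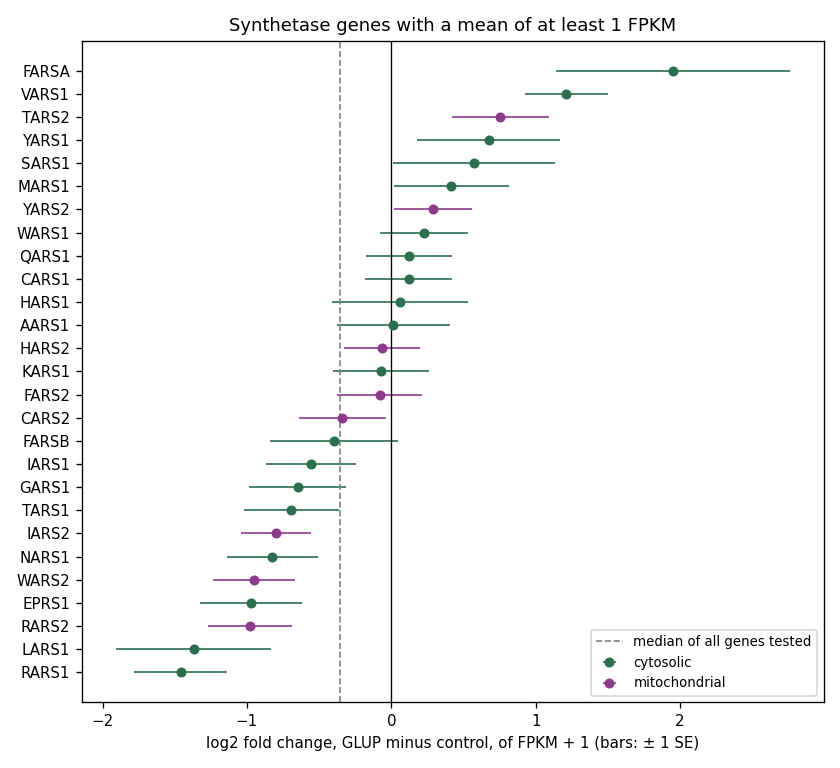
Log2 fold change of the 27 tested synthetase genes, GLUP minus control, on the log2(FPKM + 1) scale from limma, with bars of 1 standard error, for cytosolic (green) and mitochondrial genes (purple), and a dashed line at the median of all genes tested, −0.36. Values run from −1.46 in RARS1 to 1.95 in FARSA, and both classes spread over both sides of 0.

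The lowest cytosolic fold changes belonged to RARS1, LARS1 and EPRS1, the arginine, leucine and glutamate-proline enzymes, which all sit in the multi-synthetase complex. RARS1 (chr5:167913456-167946306 of GRCh37, plus strand) was at 37.7 and 45.6 FPKM in control 1 and control 2 and at 15.6 and 13.4 FPKM in GLUP 1 and GLUP 2. Both GLUP libraries were well below both controls, and each group was close within itself. The log2 fold change was −1.46 (SE 0.32, limma with a Benjamini-Hochberg adjusted p of 0.10), and it stayed between −1.59 and −1.33 when either control library was left out.

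LARS1 (chr5:145490129-145562259, minus strand) was at 22.6 and 60.6 FPKM in control cells and at 17.2 and 10.9 FPKM with GLUP. The groups did not overlap, but control 2 stood far above control 1. Its log2 fold change of −1.37 (SE 0.54, limma with a Benjamini-Hochberg adjusted p of 0.151) was −0.68 without control 2 and −2.06 without control 1. EPRS1 (chr1:220141942-220219872, minus strand) was at 17.7 and 26.6 FPKM in control cells and at 11.7 and 9.51 FPKM with GLUP, without overlap, a log2 fold change of −0.97 (SE 0.35).

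A further 4 cytosolic genes, each a known ATF4 target with the response element letters shown above, also had both GLUP libraries below both controls, as did 49.7% of all genes. NARS1, the asparagine enzyme, was at 31.7 and 27.2 FPKM in control cells and at 15.3 and 17.0 FPKM with GLUP, a log2 fold change of −0.82. TARS1, the threonine enzyme, was at 16.4 and 12.04 FPKM and at 9.22 and 7.49 FPKM (log2 fold change −0.69). GARS1, the glycine enzyme of both compartments, was at 81.2 and 69.3 FPKM and at 53.4 and 42.2 FPKM (−0.65), and IARS1, the isoleucine enzyme, at 16.7 and 14.1 FPKM and at 10.98 and 9.30 FPKM (−0.56). The other 3 genes with the letters did not differ in this way, since AARS1, CARS1 and MARS1, the alanine, cysteine and methionine enzymes, had log2 fold changes of 0.01, 0.12 and 0.42 with overlapping groups. The 7 promoters with the letters thus had no common direction.

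The highest cytosolic fold changes were those of FARSA, VARS1 and YARS1, the phenylalanine α subunit, the valine enzyme and the tyrosine enzyme. FARSA (chr19:13033293-13044851, minus strand) was at 65.7 FPKM in control 1, 10.7 in control 2, 122 in GLUP 1 and 93.8 in GLUP 2. Both GLUP libraries were above both controls, and control 2 stood apart, with a difference of −2.51 from control 1 on the log2(FPKM + 1) scale. The log2 fold change of 1.95 (SE 0.81, limma with a Benjamini-Hochberg adjusted p of 0.163) was 0.70 without control 2 and 3.21 without control 1.

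VARS1 (chr6:31745295-31763529, minus strand) was the least abundant cytosolic gene, at 0.998 and 0.595 FPKM in control cells and at 3.85 and 2.53 FPKM with GLUP. The groups were apart. Its log2 fold change was 1.21 (SE 0.29, limma with a Benjamini-Hochberg adjusted p of 0.10), and 1.37 or 1.05 without control 1 or control 2. YARS1 was at 8.37 and 2.74 FPKM in control cells and at 9.88 and 7.22 FPKM with GLUP, so that the groups overlapped, and its log2 fold change of 0.68 was 0.01 without control 2.

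The most abundant synthetase was WARS1 (chr14:100800127-100843142, minus strand), at 229.6 and 210.2 FPKM in control cells and at 267.7 and 247.8 FPKM with GLUP. Both GLUP libraries were higher, by a log2 fold change of 0.23 (SE 0.31), which was smaller than its error. SARS1 (chr1:109756540-109780804, plus strand) was at 265.5 and 88.5 FPKM and at 251.7 and 207.4 FPKM, with control 2 alone apart from the rest. Its log2 fold change of 0.57 (SE 0.56) became −0.22 without control 2. HARS1 was at 41.7 and 17.4 FPKM in control cells, on either side of the 28.2 FPKM of both GLUP libraries. Its log2 fold change of 0.06 was −0.55 without control 2 and 0.66 without control 1.

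The other cytosolic genes had overlapping groups. KARS1, the lysine enzyme of both compartments, lay between 12.7 and 18.1 FPKM over the 4 libraries (log2 fold change −0.07). AARS1 lay between 10.9 and 19.9 FPKM, MARS1 between 6.16 and 12.5 FPKM and CARS1 between 6.18 and 8.01 FPKM. QARS1, the glutamine enzyme, lay between 3.43 and 5.03 FPKM (0.12). FARSB was at 12.6 and 5.10 FPKM in control cells and at 6.06 and 5.77 FPKM with GLUP (−0.40). MARS1 shares 355 exonic bases with DDIT3, a stress-induced transcription factor gene on the opposite strand, which was at 159 and 160 FPKM in control cells and at 84.0 and 72.0 FPKM with GLUP, and how shared reads were counted is not given in the sources used here.

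Among mitochondrial synthetases, RARS2, WARS2 and IARS2, the arginine, tryptophan and isoleucine enzymes, had the lowest fold changes, and in all 3 the groups were apart. RARS2 (chr6:88223177-88299746, minus strand) was at 7.37 and 5.605 FPKM in control 1 and control 2 and at 3.01 and 2.56 FPKM in GLUP 1 and GLUP 2. Its log2 fold change was −0.98 (SE 0.29, limma with a Benjamini-Hochberg adjusted p of 0.110). WARS2 (chr1:119573839-119683277, minus strand) was at 2.69 and 3.85 FPKM and at 1.45 and 0.955 FPKM, a log2 fold change of −0.95 (SE 0.28). IARS2 (chr1:220267474-220321383, plus strand) was at 2.80 and 2.89 FPKM and at 1.11 and 1.31 FPKM, with control libraries that agreed closely, and its log2 fold change of −0.80 (SE 0.24) stayed at −0.82 and −0.78 without either control.

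TARS2, the threonine enzyme, was the highest mitochondrial gene by fold change and differed in direction from its cytosolic partner TARS1. TARS2 (chr1:150459890-150480078, plus strand) was at 3.07 and 1.45 FPKM in control cells and at 4.66 and 4.03 FPKM with GLUP. Both GLUP libraries were above both controls, with control 2 the lowest, and the log2 fold change was 0.76 (SE 0.34, limma with a Benjamini-Hochberg adjusted p of 0.184). It was 0.39 without control 2 and 1.12 without control 1. YARS2, the tyrosine enzyme, was at 3.01 and 2.42 FPKM and at 3.70 and 3.35 FPKM, also without overlap, with a log2 fold change of 0.29 (SE 0.27). HARS2 was at 2.14 and 1.41 FPKM and at 1.72 and 1.54 FPKM, with overlapping groups (−0.06).

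The most abundant mitochondrial synthetase was CARS2, the cysteine enzyme (chr13:111293759-111365950, minus strand), at 7.85 and 6.82 FPKM in control cells and at 4.80 and 6.47 FPKM with GLUP. Both GLUP values were lower, but GLUP 2 lay close to control 2, and the log2 fold change of −0.34 (SE 0.30) was −0.16 without GLUP 1 and −0.52 without GLUP 2. FARS2, the phenylalanine enzyme (chr6:5261277-5829425, plus strand), stayed between 4.96 and 6.38 FPKM in the 4 libraries, with overlapping groups (−0.08). In mean level FARS2 was followed by RARS2.

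The other 8 mitochondrial genes were below a mean of 1 FPKM and were not tested. NARS2, the asparagine enzyme, was at 1.71 and 0.735 FPKM in control cells and at 0.423 and 0.190 FPKM with GLUP, lower in both, like the cytosolic NARS1. SARS2 was at 0.737 and 0.0930 FPKM and at 1.54 and 0.871 FPKM, higher in both, and a second protein-coding gene model on the same strand shares 48.2% of its exonic bases. EARS2, for glutamate, was at 0.974 and 0.618 FPKM and at 1.15 and 0.987 FPKM, and MARS2, for methionine, at 0.245 and 0.186 FPKM and at 0.694 and 0.268 FPKM. AARS2 (0.447 to 0.662 FPKM), LARS2 (0.145 to 0.413 FPKM) and PARS2, for proline (0.0501 to 0.314 FPKM), had overlapping groups. VARS2 was listed at 0 in all 4 libraries, while a long non-coding RNA model on the same strand that covers 63.0% of its exonic bases was at 0.0629 to 0.327 FPKM. How reads shared by these models were counted is not given in the sources used here, and no level of VARS2 is drawn from its value.

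The ratio of a cytosolic gene to its mitochondrial partner within 1 library does not depend on the scaling of that library. Of 17 such pairs, 16 had a ratio, and both GLUP libraries were above both controls in 4, below in 4 (EPRS1 to EARS2, EPRS1 to PARS2, SARS1 to SARS2 and TARS1 to TARS2) and overlapping in 8. EPRS1 and FARS2 each enter more than 1 pair, and EARS2, PARS2 and SARS2 averaged under 1 FPKM. Ratios of other gene pairs were not counted, so these counts have no background share beside them. The tryptophan ratio WARS1 to WARS2 was 85.4 and 54.6 in control cells and 184 and 259 with GLUP, higher in both. The threonine ratio TARS1 to TARS2 was 5.34 and 8.30 in control cells and 1.98 and 1.86 with GLUP, lower in both. The arginine ratio RARS1 to RARS2 was 5.11 and 8.13 and then 5.18 and 5.22, so that control 2 alone stood apart, while both partners were lower with GLUP in both libraries.

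The 2 partners of the tryptophan and threonine pairs also differed in GC content, the share of G and C bases in the longest transcript, by 9.44 percentage points (WARS1 higher) and −11.8 points (TARS1 lower). The isoleucine partners had nearly the same GC content, 43.3% and 43.5%, and the ratio IARS1 to IARS2 was 5.96 and 4.88 in control cells and 9.87 and 7.09 with GLUP, higher in both GLUP libraries. With the GC trend of each library removed, as described below, the log2 fold changes of these partners were 0.03 and −0.23. The cysteine ratio CARS1 to CARS2 was 1.01 and 0.906 in control cells and 1.67 and 1.14 with GLUP, again higher in both, with CARS1 3.01 points lower in GC content. Histidine, whose genes share 1 start region, had overlapping ratios of 19.5 and 12.4 and of 16.4 and 18.3. HARS1 shares 108 exonic bases with HARS2 and 1090 with WDR55, both on the opposite strand. How shared reads were counted is not given in the sources used here. The ratio of FARSA to FARSB, 2 subunits of 1 enzyme, was 5.22 and 2.09 in control cells and 20.2 and 16.3 with GLUP, and the GC contents of these genes are 60.3% and 40.0%.

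**Figure D3:**
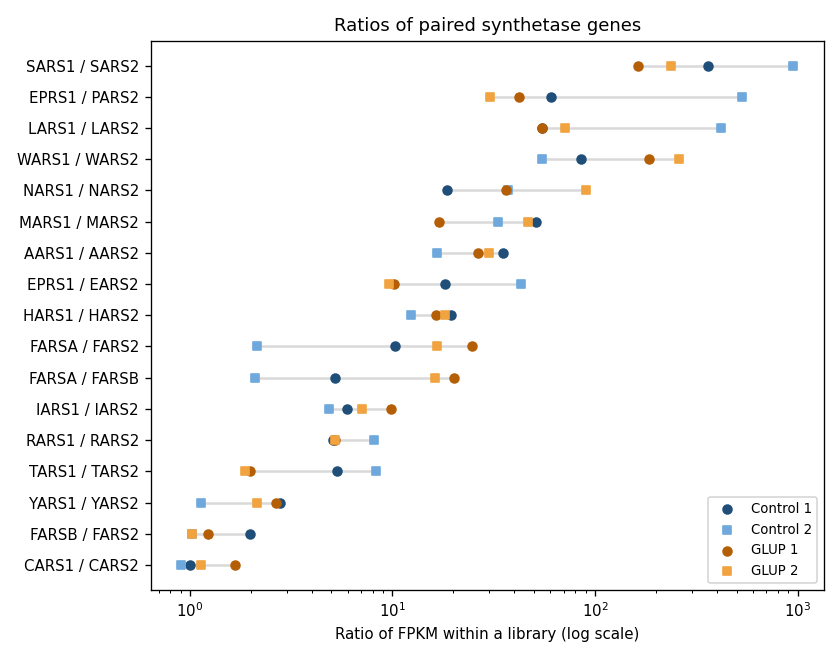
Ratio of FPKM of paired synthetase genes within each library on a log axis, with circles for replicate 1 and squares for replicate 2 of control (blue) and GLUP (orange). All are cytosolic to mitochondrial partners except FARSA to FARSB, and the tryptophan, cysteine and isoleucine ratios and both FARSA ratios lie higher with GLUP in both libraries.

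The fold changes of the synthetases were ordered along GC content. Over the 27 tested genes, which are not independent replicates and share the same 4 libraries, the Spearman rho between GC content and log2 fold change was 0.84, and over all 7570 tested genes with a known GC content it was 0.58. All 11 synthetases below the median GC content of 46.5% (EPRS1, FARSB, GARS1, IARS1, LARS1, NARS1, RARS1 and TARS1 of the cytosol and IARS2, RARS2 and WARS2 of mitochondria) had a log2 fold change below 0, with a median of −0.82. Of all genes below that GC content, 3356 of 3785 were below 0, with a median of −0.65. Of the 16 synthetases at or above it, 12 were above 0, with a median of 0.17, as were 2093 of 3785 of all such genes, with a median of 0.10.

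A difference along GC content was also present between both control libraries. The rho of GC content with control 2 minus control 1 was −0.44 over the synthetases and −0.42 over all genes, whereas GLUP 2 minus GLUP 1 gave 0.16 and 0.02. Control 2 was below control 1 in 22 of the 27 synthetases, and the gap between the control libraries was larger than that between the GLUP libraries in 22 of 27. When the GC trend of each library was removed, the rho over all genes was 0.005 and that over the synthetases 0.50. The low-GC synthetases then had a median log2 fold change of −0.20 and the others of 0.27, no synthetase had p under 0.05 before adjustment with more than a 2-fold change, and 20 of the 27 kept their sign. RARS1 was then at −0.79, LARS1 at −0.59, VARS1 at 0.69, FARSA at 1.46 and TARS2 at 0.57. Closer to 0 lay EPRS1 at −0.34, WARS2 at −0.32, IARS2 at −0.23, RARS2 at −0.20, NARS1 at −0.17 and TARS1 at −0.08, and IARS1, GARS1 and FARSB turned to 0.03, 0.10 and 0.32. The part of GC content in these differences was not tested further.

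The 7 synthetases of the multi-synthetase complex had a median log2 fold change of −0.56, with 5 below 0 and 2 (MARS1 and QARS1) above 0, and in 4 of them (EPRS1, IARS1, LARS1 and RARS1) both GLUP libraries were below both controls, against 49.7% of all genes. The 12 cytosolic synthetases outside the complex had a median of 0.09. The GC content of the complex members had a median of 43.3%, against 51.8% outside it, so that complex and GC content cannot be told apart here. Of the 3 non-synthetase proteins of the complex, AIMP1 was at 15.6 and 19.6 FPKM in control cells and at 7.97 and 8.01 FPKM with GLUP (log2 fold change −1.04), and EEF1E1 at 309 and 204 FPKM and at 103 and 99.7 FPKM (−1.30). AIMP2, in contrast, was at 449 and 161 FPKM and at 482 and 465 FPKM (0.81), with control 2 apart.

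The structural classes of the enzymes, which differ in the fold of the catalytic domain, and the ATF4 targets were each split between higher and lower genes. Of the 14 tested class I enzymes 7 were above and 7 below 0, with a median log2 fold change of −0.11, and of the 12 of class II 5 were above and 7 below, with a median of −0.07. The median was −0.27 in the 12 ATF4 targets, 6 above and 6 below 0, and 0.06 in the other 7 cytosolic genes. ATF4 itself was at 49.8 and 39.7 FPKM in control cells and at 44.2 and 38.9 FPKM with GLUP, with overlapping groups (−0.10). Of the 10 listed genes of the integrated stress response, 8 were tested and none passed the adjusted threshold, while at p under 0.05 before adjustment and more than a 2-fold change DDIT3 was lower (−1.03) and CHAC1, a glutathione-degrading enzyme, was higher (1.15). Of the 8 tested genes, 4 had a log2 fold change above 0 and 4 below. ASNS, asparagine synthetase and a classical ATF4 target, was at 18.5 and 16.2 FPKM and at 12.6 and 9.82 FPKM (−0.59). PHGDH of the same list was at 37.8 and 16.6 FPKM in control cells and at 59.8 and 45.9 FPKM with GLUP (1.03), above both controls.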

How the data were processed

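The authors deposited 1 table of FPKM values with a row per gene for the 4 libraries. The submitters' processing notes list HISAT2, Cufflinks and RSEM, with no version or order, and the build GRCh38.p10, whereas the row identifiers have the form of annotation lifted to GRCh37. Positions, GC content and overlaps here come from GENCODE on GRCh37, in which 99.55% of the identifiers were named. Of 62492 rows, 49 second pseudoautosomal copies were summed with the first.

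Genes that averaged 1 FPKM or more were tested on log2(FPKM + 1) with limma 3.58.1 in R 4.3.3 (mean-variance trend, Benjamini-Hochberg adjustment over 7588 genes). For the GC correction, each library's trend along GC content was smoothed by lowess (span 0.3) and subtracted. The fit was checked on simulated data. In those data almost none of the genes shifted 2-fold reached an adjusted p under 0.05 in limma. A lack of adjusted calls therefore does not show a lack of change. The members and lists were chosen with earlier results of these data known. All 35 members are named. Full values were given for those past the unadjusted p and fold, the 3 highest and 3 lowest fold changes and the 3 highest means of each class, and further values were given where the text compares them. The replicate number was no term of the fit, since the labels give it no shared day or culture. Alternatives were another pseudocount, other filters, scalings and variance models, the replicate number as a block, the GC correction, a fold of 1.5 and leaving out each library. The depth is unknown, so no counting error can be given.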

Additional observations from a re-analysis of the deposited data

How the results depend on the processing

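None of the 27 synthetases passed the adjusted threshold of limma under the other pseudocount, filters, scalings, variance model, replicate block or GC correction. Leaving out 1 library gave 0 to 9 such synthetases, and over all genes 4 to 2710 calls in place of 2. The 9 (EPRS1, FARSA, LARS1, RARS1, SARS1, TARS2, VARS1, WARS2 and YARS1) passed without control 1, and RARS1 and RARS2 passed without control 2, where the spread comes from the GLUP pair and the lone control is assumed to vary alike. The calls over all genes were 1 with a pseudocount of 0.1, median centring or quantile normalization, 0 with all genes above 0, at least 5 FPKM, no mean-variance trend or the GC trend removed, and 16 with the GC trend removed and a replicate block. Where the count was 0, an unadjusted p under 0.05 with a fold over 2 held for 254 higher and 1039 lower, 186 and 704, 353 and 1108, and 355 and 345 genes in that order.

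Synthetases higher at an unadjusted p under 0.05 and a fold over 2, 1 in the fit reported, numbered 0 at a mean of at least 5 FPKM and with the GC trend removed, 3 under median centring and quantile normalization (FARSA, TARS2 and VARS1), 2 with the replicate block (FARSA and VARS1) and 0 to 5 without 1 library. The lower ones, 2 in the fit reported, numbered 6 with a pseudocount of 0.1, 1 with all genes above 0, at least 5 FPKM, median centring or quantile normalization, 4 at equal FPKM sums, 0 with the GC trend removed with or without a replicate block, 0 to 4 without 1 library and 7 at a fold of 1.5. With the GC trend removed, the replicate block brought FARSA past that threshold, where no synthetase passed without it, and it changed no other synthetase call. Replicate 1 minus replicate 2 correlated at 0.126 between the groups, which with 2 pairs does not show that the numbers pair the libraries.

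Median centring moved the median of all genes from −0.36 to −0.01 and the split of genes past the unadjusted p and fold from 354 higher and 1103 lower to 796 and 428. The cytosolic median was 0.36 under median centring and 0.40 under quantile normalization, and the mitochondrial one 0.13 and 0.10. With all genes above 0 the mitochondrial median over 15 genes was −0.065. Without 1 library the cytosolic median ran from −0.39 to 0.27 and the mitochondrial one from −0.34 to −0.089.

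Among single genes, the sign turned under median centring and quantile normalization in KARS1 (0.27 and 0.32), CARS2 (0.0054 and 0.046), FARS2 (0.26 and 0.29) and HARS2 (0.28 and 0.16), and at equal FPKM sums in AARS1 (−0.026). With the GC trend removed, with or without a replicate block, it turned in AARS1 (−0.014), FARSB (0.32), GARS1 (0.098), IARS1 (0.026), KARS1 (0.31), QARS1 (−0.085) and HARS2 (0.21). Leaving out 1 library turned the sign of AARS1 (−0.39 to 0.42), CARS1 (−0.035 to 0.28), FARSB (−0.97 to 0.18), HARS1 (−0.55 to 0.66), KARS1 (−0.31 to 0.17), MARS1 (−0.042 to 0.87), QARS1 (−0.056 to 0.30), SARS1 (−0.22 to 1.36), FARS2 (−0.23 to 0.070) and HARS2 (−0.26 to 0.13). Control 1 was the library left out in FARSB, KARS1, FARS2 and HARS2, control 2 in CARS1, HARS1, MARS1 and SARS1, control 2 or GLUP 1 in AARS1 and control 2 or GLUP 2 in QARS1. The causes were not tested.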

Other observations

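Of the 5 tested genes of tRNA handling, 3 had a log2 fold change below 0, and both GLUP libraries lay below both controls in 2, against 49.7% of all genes. TRNT1, the enzyme that adds the CCA end to tRNAs, was at 16.6 and 17.1 FPKM in control cells and at 6.17 and 5.600 FPKM with GLUP. The controls agreed closely and the groups were apart, with a log2 fold change of −1.38 (limma with a Benjamini-Hochberg adjusted p of 0.10), and its GC content is 38.7%. ELAC2, which trims the 3′ end of tRNA precursors, was at 4.12 and 2.54 FPKM and at 1.002 and 1.25 FPKM, without overlap. Its GC content is 54.1%. Of all genes at or above the median GC content, 1692 of 3785 had a log2 fold change below 0.

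The selenocysteine branch converts a serine that SARS1 has loaded onto a special tRNA. Of the 3 listed genes of this branch, 2 were tested. In both, the GLUP libraries lay below both controls, as did 49.7% of all genes. SEPSECS averaged 0.484 FPKM and was not tested. Its groups overlapped, since the control values of 0.554 and 0.470 FPKM fell between 0.561 (GLUP 1) and 0.352 (GLUP 2). PSTK, the kinase of that serine, was at 8.64 and 11.01 FPKM in control cells and at 3.51 and 4.97 FPKM with GLUP (−1.05), and SEPHS2, which makes the selenium donor, at 2.55 and 2.37 FPKM and at 1.28 and 0.902 FPKM (−0.73), both without overlap. The 4 mitochondrial genes GATB, GATC and QRSL1 of the amidotransferase and MTFMT, the formyltransferase of the initiator tRNA, all had both GLUP libraries below both controls, as did 49.7% of all genes, with log2 fold changes from −0.57 to −0.24 and none past an unadjusted p under 0.05. Of the elongation factors that take up charged tRNA, the mitochondrial TUFM was at 38.5 and 17.1 FPKM in control cells and at 71.5 and 58.6 FPKM with GLUP, above both controls (1.30, limma with a Benjamini-Hochberg adjusted p of 0.132), with a GC content of 57.4%. The cytosolic EEF1A1 was at 810 and 455 FPKM and at 1077 and 658 FPKM, with overlapping groups (0.47).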
